A study of Homo sapiens with 15 samples.

Results

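Cytochrome b5 reductases and their haem protein partners are the genes described here, chosen because they form the electron supply line that can return oxidised cytoglobin to its reduced, oxygen-binding form. The set held 7 genes, namely CYB5R1, CYB5R2, CYB5R3, CYB5R4, CYB5A, CYB5B and POR. Members were the array probes whose accession a current RefSeq gene table assigns to a gene of the set, which gave 10 probes of 6 genes, among 42405 probes and 19483 named genes in all. Probes with accessions that this table does not list were left unnamed. Among them was a probe with an accession of POR, which encodes cytochrome P450 oxidoreductase. None of the named probes was assigned to POR, so POR was not analysed here although the array carries a probe for it.

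The study compared RNA of PE/CA-PJ41 cells, an established human oral squamous carcinoma line, in 2 stably transfected forms. Per the labels, NCE cells, the mock control whose name stands for non-cytoglobin expressing, had received an empty transfection vector, although the study's text also calls NCE cells un-transfected, and which of these held for the arrays cannot be told apart here. CYGB+ cells had received pCMV6-Neo with the human cytoglobin cDNA. Stable clones had been picked under G418, and all cells were cultured for 24 hours in supplemented medium before RNA extraction. The methods name a single CYGB+ clone for the arrays, so the effect of cytoglobin and the properties of that clone cannot be told apart. Each group had 3 biological replicates. Every NCE replicate was hybridised to 3 repeat arrays and every CYGB+ replicate to 2, which gave 15 arrays. All values below are green (Cy3) signals after normalisation, on the log2 scale, with repeat arrays averaged per biological replicate. Differences are CYGB+ minus NCE, and "called" means an adjusted p under 0.05 in limma over all 19605 tested probes.

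A cytochrome b5 reductase is a flavoprotein that takes electrons from NADH and hands them singly to the haem of cytochrome b5. Reduced cytochrome b5 then passes them on to fatty acid desaturases, to some cytochromes P450, and to ferric globins. Cytoglobin that has reacted with oxygen and nitric oxide is left ferric, and the pair formed by CYB5R3 and cytochrome b5 is a known route by which it is reduced again.

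The arrays differed in ways that touch every result below. Slide 1 held 8 NCE arrays, whereas slide 2 held the 6 CYGB+ arrays and a single NCE array, the third of replicate 1, so that slide and group are nearly the same split. Array 1 of CYGB+ replicate 1 stood apart, with a median correlation of 0.921 to the other arrays, where the remaining arrays lay between 0.965 and 0.983. Between 20350 and 24100 probes per array were well above background. All 9 squamous epithelial marker genes were well above background on all 15 arrays, as was 1 of 5 fibroblast markers (COL1A2, log2 difference -1.32, adjusted p = 0.00271), 1 of 3 leucocyte markers (CD68) and none of 3 endothelial markers. Among the epithelial markers, KRT6A alone was called, with a log2 difference of -0.46 and an adjusted p of 0.0458. The part of these differences in the results below was not tested.

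The only probe that was named as CYGB (A_33_P3285868) did not separate the groups. Whether any unnamed probe also reads CYGB was not checked. It read 11.85, 12.15 and 11.96 in NCE replicates 1 to 3 and 11.38, 12.44 and 11.97 in the CYGB+ replicates. The values overlapped, with a log2 difference of -0.055 ± 0.25 (SE), a 95% interval from -0.63 to 0.52 and an adjusted p of 0.906. The probe was well above background on all 9 NCE and all 6 CYGB+ arrays. NCE cells are nevertheless named as non-cytoglobin expressing, and the study describes their parent line likewise. The source of the signal in NCE was not tested. Which stretch of the CYGB transcript the probe covers is not given in the sources used here. A probe outside the transfected cDNA would not report the transgene. Whether that held here, or whether labels or channels were misassigned, was not tested. The labels are thus not checked by this probe, and NCE and CYGB+ below are the cells so labelled.

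CYB5R2 and CYB5R4 moved in opposite directions, and both probes of each gene had the same sign. All 10 member probes passed the filter on dim probes, the CYB5R2 probe A_33_P3381265 only through NCE, where it is high, and the CYB5B probe only through CYGB+. Of the 10 member probes, 4 were called, 2 of CYB5R4 higher and 2 of CYB5R2 lower in CYGB+. Among all tested probes 12.1% were called, 6.11% as higher and 5.95% as lower. The replicates of the groups did not overlap for 6 member probes, against 34.9% of all tested probes. The median difference over the member probes was -0.046, beside 0.0093 over all tested probes, and the median absolute difference was 0.42 beside 0.20. The 4 called probes belong to 2 genes, and probes of a gene are not independent of each other. In RNA from whole cultures, fewer cells that express a gene and less of its RNA in each cell cannot be told apart.

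**Figure D1:**
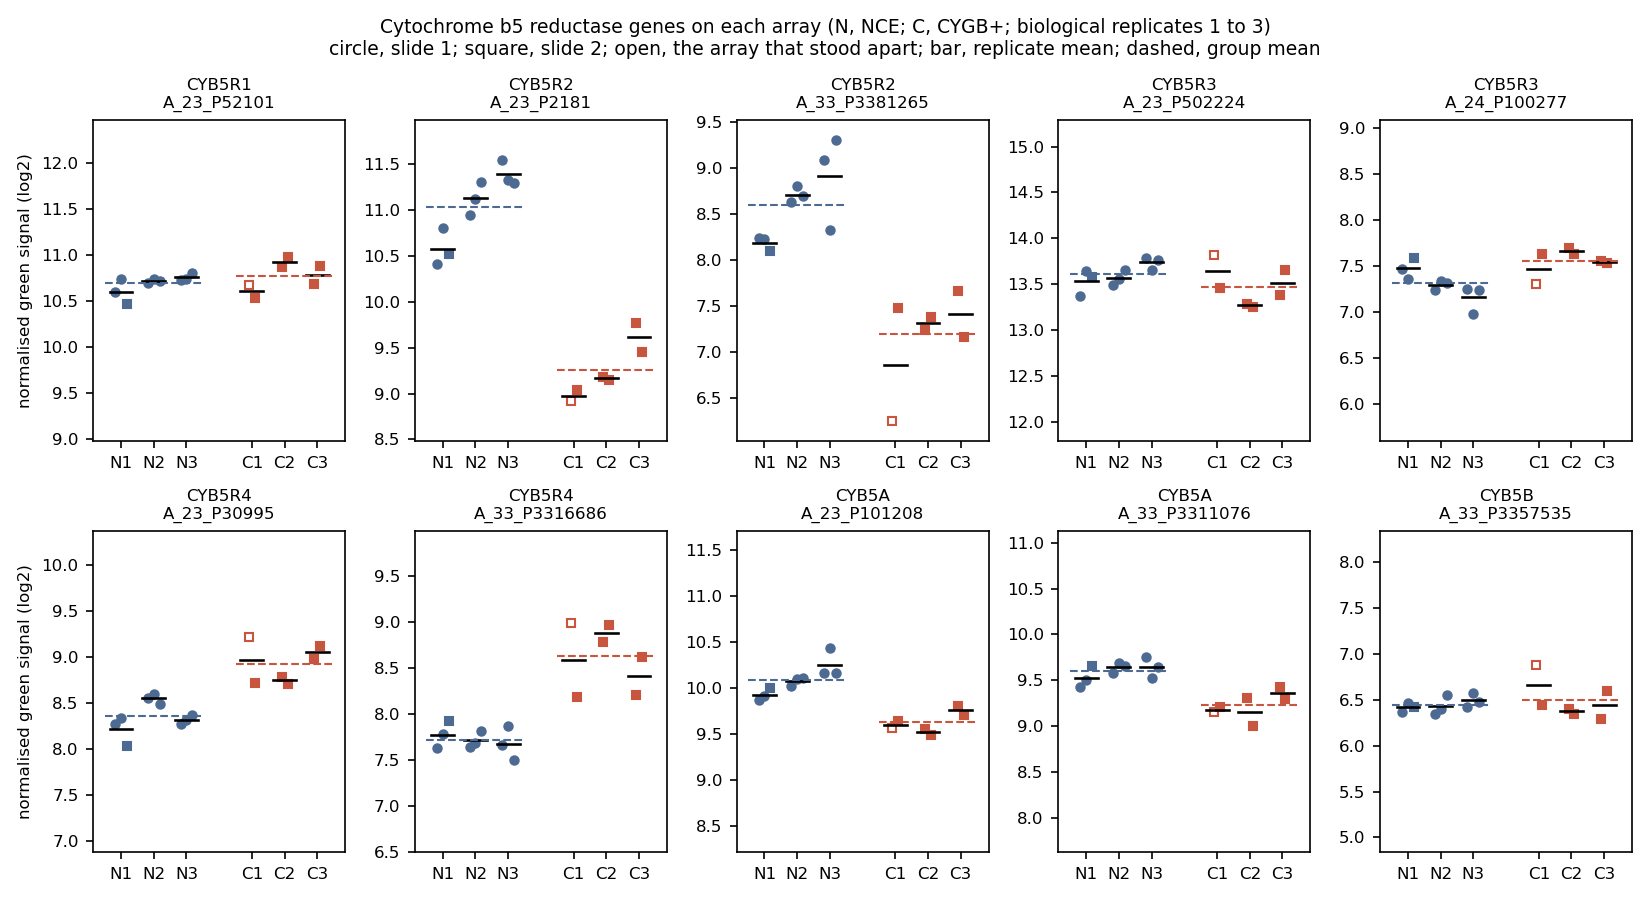
Normalised green signal (log2) of the 10 member probes on each of the 15 arrays, with N1 to N3 the NCE and C1 to C3 the CYGB+ biological replicates. Points are repeat arrays (circles on slide 1, squares on slide 2, open squares the array that stood apart), black bars are replicate means and dashed lines group means, and each panel spans the same number of log2 units. The CYB5R2 points of CYGB+ lie below all NCE points and the CYB5R4 points of CYGB+ above them, whereas the CYB5R1, CYB5R3 and CYB5B points overlap.

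To show the regions from which the transcripts of these genes start, the 250 bases before an annotated start site were taken from RefSeq (GRCh38.p14). Windows were found for 5 of the 7 genes, 9 windows in all, with 3 each for CYB5R2 and CYB5R3. The windows of the called genes are printed, for CYB5R2 the richest in CpG of its 3, with matches to 3 motifs in capitals. The motifs were the GC box GGGCGG, the hypoxia response core ACGTG and the antioxidant response core TGACNNNGC, searched on both strands.
CYB5R2, chr11:7673501-7673750, minus strand: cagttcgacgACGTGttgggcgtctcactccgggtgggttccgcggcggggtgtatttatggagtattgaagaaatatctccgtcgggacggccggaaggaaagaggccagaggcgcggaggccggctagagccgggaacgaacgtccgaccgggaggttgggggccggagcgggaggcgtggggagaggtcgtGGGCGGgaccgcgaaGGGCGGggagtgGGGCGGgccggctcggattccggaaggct
CYB5R4, chr6:83859439-83859688, plus strand: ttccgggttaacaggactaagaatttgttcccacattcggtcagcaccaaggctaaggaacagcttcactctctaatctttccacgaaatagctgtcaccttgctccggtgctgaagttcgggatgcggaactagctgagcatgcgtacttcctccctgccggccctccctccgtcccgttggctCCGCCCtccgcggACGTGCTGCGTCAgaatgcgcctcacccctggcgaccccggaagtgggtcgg

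The printed CYB5R2 window held 32 CpG dinucleotides, a count that follows from its choice as the richest, and the other CYB5R2 windows held 4 and 19. The CYB5R4 window held 19. Over 35116 human windows of the same length the median was 11, with quartiles of 3 and 23. The printed CYB5R2 window had 3 GC boxes and 1 hypoxia response core, and none of its letters matched the antioxidant response core. The CYB5R4 window had 1 match to each motif, and there the antioxidant and hypoxia response cores shared a base. Over all windows, 42.6% held a GC box, 18.5% a hypoxia response core and 10.9% an antioxidant response core. Among the 9 member windows the counts were 6, 4 and 2. Which start site the cells used was not measured, and a match is a run of letters only.

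CYB5R2, a NADH-dependent reductase of the same family as CYB5R3, showed the largest difference of the member genes. Its probe A_23_P2181 read 10.58, 11.12 and 11.39 in the NCE replicates and 8.98, 9.17 and 9.61 in the CYGB+ replicates. Every CYGB+ replicate lay below every NCE replicate. The 9 NCE arrays lay between 10.41 and 11.54 and the 6 CYGB+ arrays between 8.92 and 9.77. They are repeat arrays of 3 replicates per group, and the share of all probes whose arrays separate was not counted. The difference of -1.78 ± 0.24 (SE, 95% interval -2.33 to -1.23) is 3.43-fold lower, with an adjusted p of 0.00665. The spread between repeat arrays of a replicate was at most 0.39 for this probe.

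The second CYB5R2 probe, A_33_P3381265, read 8.19, 8.71 and 8.91 in the NCE replicates and 6.86, 7.31 and 7.42 in the CYGB+ replicates. Here too all CYGB+ replicates lay below all NCE replicates. The difference was -1.41 ± 0.22, or 2.65-fold lower, with an adjusted p of 0.0098. The probe passed the filter through the NCE group alone. It was well above background on 5 of the 6 CYGB+ arrays and not on array 1 of replicate 1, the array that stood apart, where it read 6.25. Without that array the difference was -1.20 with an adjusted p of 0.00382. Without NCE replicate 2 the adjusted p was 0.0506. It was not tested where probes had to be well above background on all 15 arrays. In that setting 3 of 8 member probes were called, as were 2097 of all 17451 tested probes.

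Slide was nearly the same split as group, so CYB5R2 was also compared within slide 2. The single NCE array there read 10.52 for A_23_P2181 and 8.10 for A_33_P3381265, and all 6 CYGB+ arrays read lower on both probes. These are repeat arrays of 3 replicates, and the uncalled CYB5R1 also had all 6 on the same side of the NCE array. The share of all probes with such a split was not counted, here or for the member genes below. The fit with slide as a block entered all 15 arrays singly, with a random block for the biological replicate. In it A_23_P2181 kept its call (-1.42, adjusted p = 0.0234) and A_33_P3381265 lost it (-1.04, adjusted p = 0.284). This fit differs from the reported one in its unit as well as in the slide term. With all arrays entered but no slide term, 4627 probes were called in all, against 2364 as reported. The slide term itself rests on the single NCE array of slide 2. Within slide 2 alone, where the lone NCE replicate is assumed to vary like the CYGB+ replicates, the differences were -1.27 and -0.90 with adjusted p of 0.228 and 0.307. In that fit only 5 of 19603 probes were called over the whole array. In NCE replicate 1, which was run on both slides, slide 2 minus slide 1 was -0.089 and -0.13 on the CYB5R2 probes.

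The named probes whose signal followed A_23_P2181 most closely over the 15 arrays belonged to DCBLD2 (Pearson r = 0.986), CRLS1, the cardiolipin synthase gene (r = 0.984), and CFHR3 (r = 0.978). Their own differences were -1.33, -0.76 and -0.77. The points share arrays, slides and the group split, so these correlations are a description of likeness only.

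CYB5R4 encodes a natural fusion in which a cytochrome b5 domain and a reductase domain sit on the same chain, and it was the member gene that rose in CYGB+. Its probe A_33_P3316686 read 7.78, 7.72 and 7.68 in the NCE replicates and 8.59, 8.88 and 8.42 in the CYGB+ replicates. All CYGB+ replicates were above all NCE replicates. The difference was 0.91 ± 0.14 (SE), or 1.87-fold higher, with an adjusted p of 0.00896. Repeat arrays of a replicate differed by up to 0.81, which was CYGB+ replicate 1 with 8.996 on the array that stood apart and 8.19 on the other. Without the former array the difference was 0.77 with an adjusted p of 0.0156.

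The second CYB5R4 probe, A_23_P30995, read 8.21, 8.55 and 8.32 in the NCE replicates and 8.97, 8.74 and 9.05 in the CYGB+ replicates. The groups again did not overlap. The difference was 0.56 ± 0.13, or 1.47-fold higher, with an adjusted p of 0.035. This call was close to the threshold, and it was lost in 10 of 20 alternative settings. Leaving out any NCE replicate, CYGB+ replicate 1 or CYGB+ replicate 3 brought the adjusted p to between 0.0592 and 0.130, with differences from 0.49 to 0.65.

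Within slide 2 all 6 CYGB+ arrays read higher than the NCE array on both CYB5R4 probes. That NCE array read 8.03 on A_23_P30995 and 7.92 on A_33_P3316686. In the all-array fit with slide as a block, A_23_P30995 kept its call and A_33_P3316686 lost it. In that order the differences were 0.86 (adjusted p = 0.0192) and 0.71 (adjusted p = 0.209). Within slide 2 alone they were 0.89 and 0.71, with adjusted p of 0.244 and 0.384. In NCE replicate 1, slide 2 minus slide 1 was -0.28 on A_23_P30995 and 0.22 on A_33_P3316686.

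**Figure D2:**
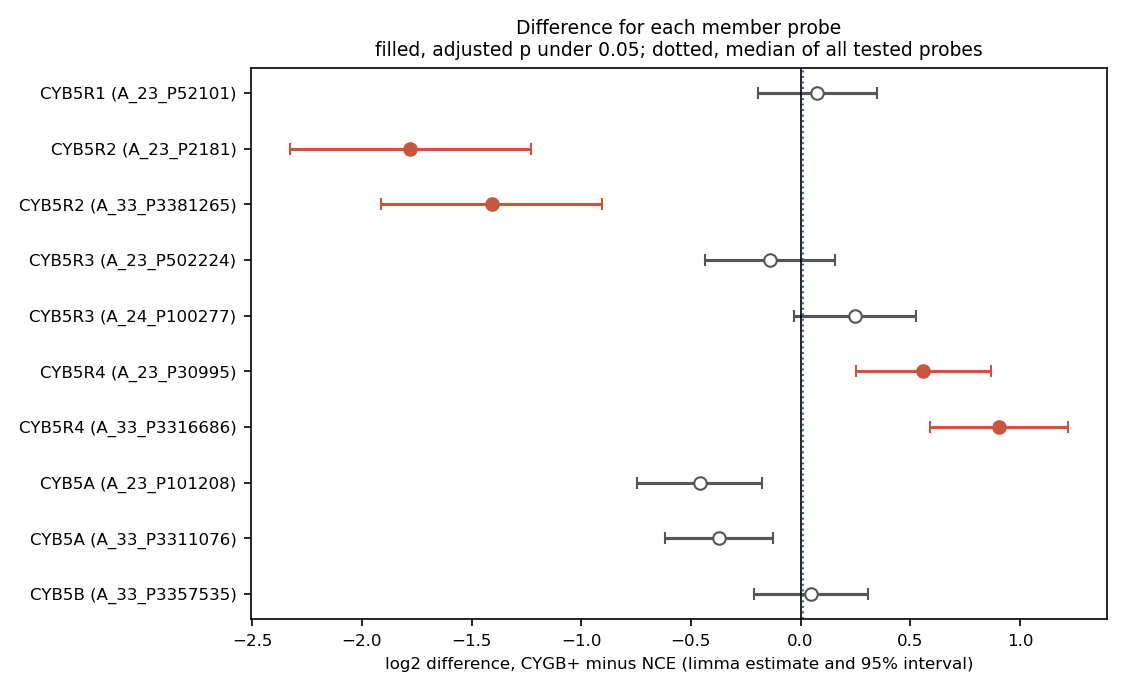
Log2 difference between CYGB+ and NCE for the 10 member probes, with the 95% interval of the limma fit, filled where the adjusted p was under 0.05. The dotted line is the median of all tested probes (0.0093), and the intervals of the CYB5R2, CYB5R4 and CYB5A probes leave out 0 whereas only those of CYB5R2 and CYB5R4 were called after adjustment.

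CYB5R3, the reductase that keeps haemoglobin reduced in red cells and that pairs with cytochrome b5 in reducing cytoglobin, was not called on either probe. A_23_P502224 read 13.53, 13.57 and 13.74 in the NCE replicates and 13.64, 13.27 and 13.52 in the CYGB+ replicates. The replicates overlapped, and the difference of -0.14 ± 0.13 had a 95% interval from -0.44 to 0.16 (adjusted p = 0.506). The other probe, A_24_P100277, read 7.48, 7.30 and 7.16 in NCE and 7.47, 7.67 and 7.55 in CYGB+, and these values also overlapped. Its difference of 0.25 ± 0.12 had an interval from -0.029 to 0.53 (adjusted p = 0.214). The probes thus differed in sign, and neither difference was called in any of 20 alternative settings. The probes most like A_23_P502224 over the 15 arrays were those of ANO6 (r = 0.891), DROSHA (r = 0.889) and ZNF10 (r = 0.888), none of them called.

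CYB5R1, a membrane-bound relative of CYB5R3, read 10.60, 10.72 and 10.76 in the NCE replicates and 10.60, 10.92 and 10.78 in the CYGB+ replicates. The groups overlapped, and the difference of 0.077 ± 0.12 had a 95% interval from -0.20 to 0.35 with an adjusted p of 0.703. On slide 2, all 6 CYGB+ arrays read above the NCE array, at 10.54 to 10.98 against 10.46, while in NCE replicate 1 slide 2 minus slide 1 was -0.20.

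CYB5A, the cytochrome b5 of the endoplasmic reticulum and the electron acceptor of these reductases, had lower readings in CYGB+ on both probes, and neither was called. The probe A_23_P101208, printed in 10 spots on each array, read 9.93, 10.08 and 10.26 in the NCE replicates and 9.60, 9.53 and 9.76 in the CYGB+ replicates. No CYGB+ replicate reached an NCE replicate, nor did any CYGB+ repeat array reach an NCE array. The difference was -0.46 ± 0.12 with an adjusted p of 0.0507. With the biological replicate number as a block the same difference had an adjusted p of 0.036, which is the only member call that the block changed.

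The other CYB5A probe, A_33_P3311076, assigned to a different transcript accession, read 9.53, 9.64 and 9.64 in NCE and 9.18, 9.15 and 9.36 in CYGB+. Again the replicates did not overlap. The difference was -0.37 ± 0.11 with an adjusted p of 0.0606. Both probes were called without the array that stood apart (adjusted p = 0.0276 and 0.0304) and with all arrays entered under a random replicate block (0.00144 and 0.00427). Calls over all 19605 tested probes also rose in these settings, from 2364 as reported to 4053 and 4627. Within slide 2 all 6 CYGB+ arrays lay below the NCE array on both probes, with differences of -0.38 and -0.42 and adjusted p of 0.601 and 0.538.

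CYB5B, the cytochrome b5 of the outer mitochondrial membrane, gave a dim signal on which the groups overlapped. It read 6.42, 6.43 and 6.49 in the NCE replicates and 6.66, 6.37 and 6.45 in the CYGB+ replicates, with a difference of 0.047 ± 0.11 (95% interval -0.21 to 0.31, adjusted p = 0.812). The probe was well above background on 7 of 9 NCE and all 6 CYGB+ arrays. The highest reading, 6.88, came from the array that stood apart, and without that array the difference was -0.025.

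Across the member genes the calls depended on how the arrays were handled, whereas the directions of the CYB5R2, CYB5R4 and CYB5A probes did not change in any setting that tested them. The A_23_P2181 difference ranged from -2.004 to -1.27 and that of A_33_P3381265 from -2.38 to -0.90. For CYB5R4 the ranges were 0.71 to 1.197 for A_33_P3316686 and 0.48 to 0.89 for A_23_P30995. For CYB5A they were -0.54 to -0.38 and -0.47 to -0.32. These settings reuse the same arrays and are not independent of each other.

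**Figure D3:**
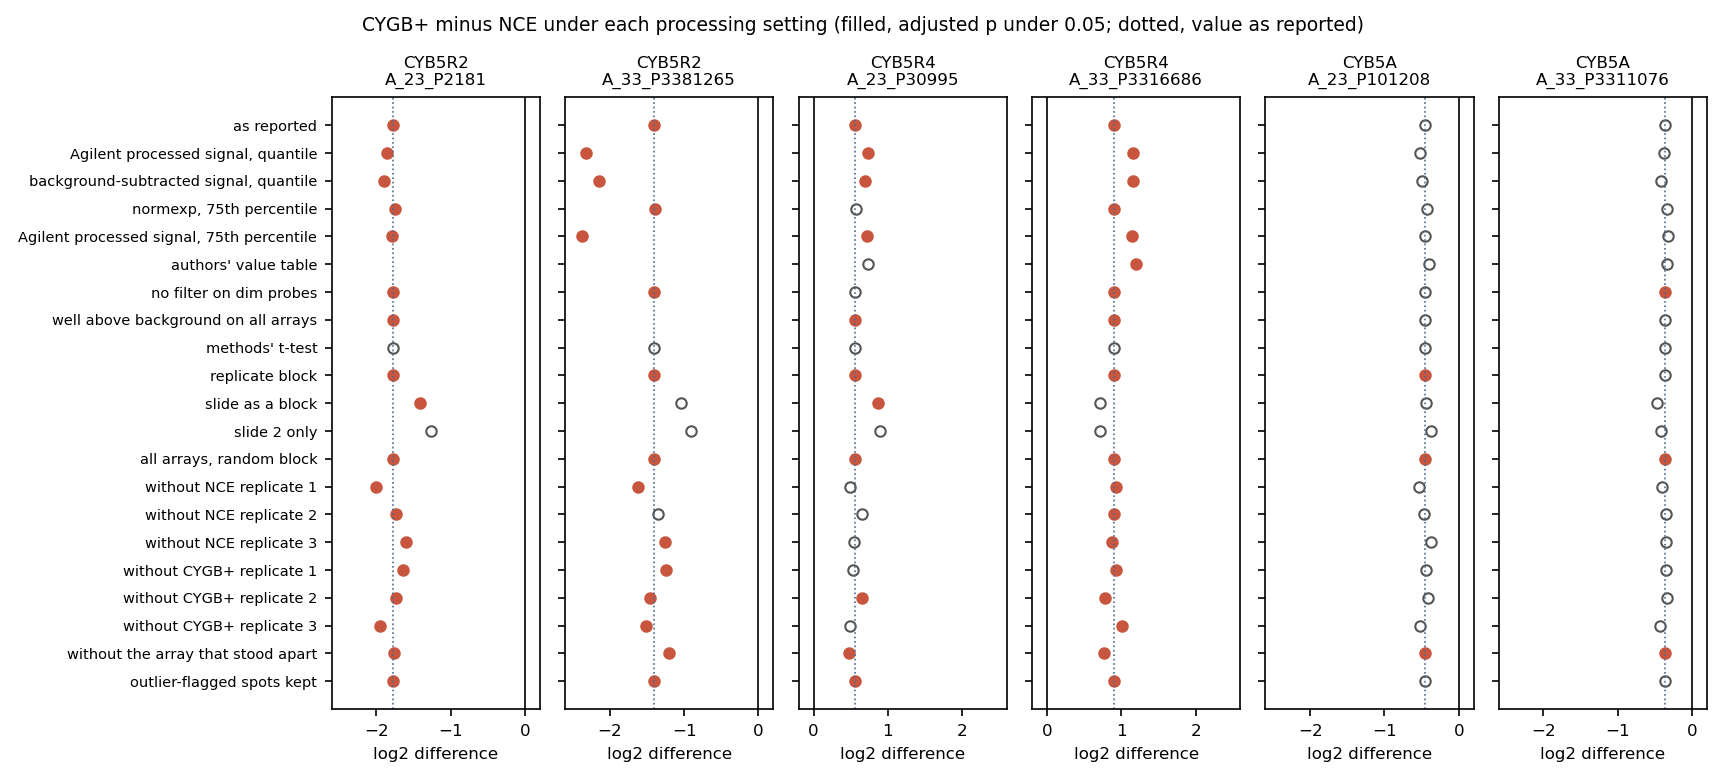
Log2 difference between CYGB+ and NCE of the CYB5R2, CYB5R4 and CYB5A probes (horizontal axes) as reported and under 20 alternative settings (rows), filled where the adjusted p was under 0.05. A missing point is a setting without that probe; the dotted line is the value as reported, and no point is filled for slide 2 only or for the methods' t-test.

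The related genes were followed from lists of the pathway's outlets and neighbours. Each count of called probes in these lists is to be set beside the 12.1% called over all 19605 tested probes. The lists were chosen with earlier results of these data known, so such counts are description only. Enzymes that draw electrons from cytochrome b5, the acyl desaturases and the sterol enzymes, were not called on any of 10 tested probes, of which 2 had an unadjusted p under 0.05 in limma, as did 5727 of all 19605 tested probes. Their median difference was 0.13. The highest was FADS1, a desaturase of polyunsaturated fatty acids, at 0.69 with an adjusted p of 0.0592. Of 10 tested probes for other proteins with a cytochrome b5 domain and for reductase relatives, 1 was called as higher, CYB5D2 (0.45, adjusted p = 0.0262). That value rested on leaving out a spot flagged as an outlier on 1 array, since with such spots kept it was -0.45 (adjusted p = 0.695), and the call was lost in a further 8 of 19 settings.

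Among enzymes that take electrons from POR and other flavin or ferredoxin reductases, 2 of 20 tested probes were called as higher and 1 as lower. Over all tested probes the shares were 6.11% and 5.95%. HMOX1, the inducible haem oxygenase, rose by 1.00 ± 0.12 (adjusted p = 0.00469). CYP4F11, a fatty acid hydroxylase of the cytochrome P450 family, rose by 1.16 ± 0.19 on A_23_P39315 (adjusted p = 0.0112), while its other probe stood at 0.69 with an adjusted p of 0.0614. The CYP4F11 call was lost in 5 of 20 settings, among them slide as a block (adjusted p = 0.183) and leaving out NCE replicate 2 (0.0588) or 3 (0.0539). FDXR, the mitochondrial ferredoxin reductase, fell by 0.46 ± 0.10 (adjusted p = 0.0274), a call lost in 11 of 20 settings.

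Of the reductases that act on quinones with NADH or NADPH, 2 of 6 tested probes were called as higher and 1 as lower, beside 6.11% and 5.95% of all tested probes. TXNRD1, the cytosolic thioredoxin reductase, rose by 1.05 ± 0.12 (adjusted p = 0.00493). NQO1, a reductase of quinones by paired electrons, rose by 0.94 ± 0.13 (adjusted p = 0.00675). CRYZ, zeta-crystallin, fell by 0.70 on A_33_P3405743 (adjusted p = 0.0317), while its other probe stood at -0.46 with an adjusted p of 0.108. The CRYZ call was lost in 10 of 20 settings, and the difference was -0.23 with slide as a block (adjusted p = 0.760) and -0.21 within slide 2 alone (adjusted p = 0.856). The HMOX1, TXNRD1 and NQO1 calls were lost in 1 of 20 settings each, that of slide 2 alone.

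In the list for ascorbate and nitric oxide handling, GLRX, the cytosolic glutaredoxin, rose by 0.60 (adjusted p = 0.0335) and SLC23A2, an ascorbate transporter, fell by 0.53 (adjusted p = 0.0213), among 4 tested probes. These calls were lost in 11 and 6 of 20 settings. Of the other globins a single probe was bright enough to be tested, that of HBQ1, at -0.20 with an adjusted p of 0.436. Myoglobin and neuroglobin were well above background on no array.

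**Figure D4:**
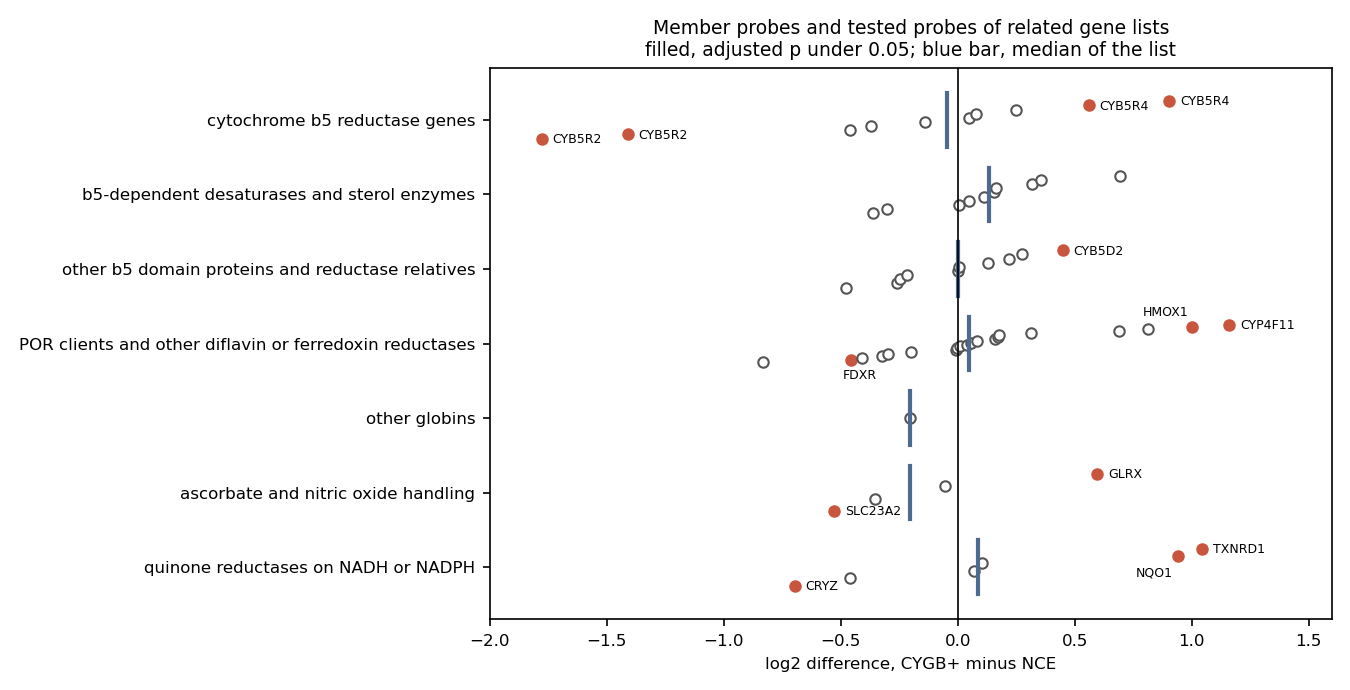
Log2 difference between CYGB+ and NCE (horizontal axis) for the member probes and the tested probes of 6 related lists (rows), filled and named where the adjusted p was under 0.05. Blue bars are list medians, which lie between -0.20 and 0.13, and the called CYB5R2 probes lie lower than any other point shown.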

How the data were processed

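RNA was labelled and hybridised by the authors to Agilent SurePrint G3 human expression arrays, and Agilent Feature Extraction (version 10.7.3.1 per the file headers) gave each spot a median intensity and a local background intensity, which are the deposited values used here. The labels give Cy3 for all samples, while the study's methods give Cy5 for the control, so the green (Cy3) channel was analysed and the sample behind the red channel is not given in the sources used here. Median rather than mean intensities were used because the latter were not in the files used here.

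Background was corrected by normexp (offset 50), arrays were quantile normalised and converted to log2, spots flagged as outliers were left out, and spots of a probe and repeat arrays of a biological replicate were averaged. Tested probes were well above background on every array of at least 1 group. The groups of 3 biological replicates were compared with limma 3.58.1 (R 4.3.3) without a block, with Benjamini-Hochberg adjustment over all tested probes and a threshold of 0.05, after tests on simulated data. The number of biological replicates limits precision. Probes were named by matching their accession, without its version, to RefSeq genes, which named 25422 of 42405 probes. The named genes were all members, CYGB, up to 4 called genes with the largest differences from each related list, and the 3 most alike probes for CYB5R3 and for the most changed member. Members and lists were chosen with earlier results of these data known. A further marker list is not reported here.

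RNA was extracted on 3 occasions that the labels do not tie to replicate numbers. Same-numbered replicates deviated together (correlations of 0.22, 0.23 and 0.31), although differently numbered ones reached 0.31 as well (range from -0.52), and the replicate number was entered as a block in an alternative fit. The other alternatives were other signals, normalisations and filters, the methods' t-test, leaving out each replicate or the array that stood apart, and keeping flagged spots. Further alternatives were slide as a block, slide 2 alone, and all arrays with a random block. The fit with slide as a block also entered all arrays with that random block. The authors' deposited value table holds natural log values of the background-subtracted signal, centred per probe on CYGB+, and was used as an alternative only.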

Additional observations from a re-analysis of the deposited data

Results flagged for a closer look

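In CYGB+ replicate 1, array 1 gave 6.25 (log2) on the CYB5R2 probe A_33_P3381265, where the next lowest CYGB+ array gave 7.17. The gap was large for the range of the 6 arrays. It was 1 of 22 probe and group combinations tested in this way, and chance flags about 1 in 20. The same array stood apart from the others over all tested probes, and the CYB5R2 difference without it is given above.

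The red channel, whose sample the labels do not name, was outside every comparison above. All 10 member probes were well above background in it on all 15 arrays. On the CYB5R2 probe A_23_P2181 the red processed signal of NCE lay between 1373 and 1995 on repeat array 1, between 3986 and 5605 on repeat array 2 and between 4472 and 6998 on repeat array 3. The red signal of the CYGB+ arrays lay between 803 and 1954 on repeat array 1 and between 1718 and 2114 on repeat array 2. On the CYB5R4 probe A_23_P30995 the red signal of NCE was 787 to 940, 405 to 463 and 439 to 481 on repeat arrays 1, 2 and 3, and that of CYGB+ was 914 to 1089 and 768 to 1622 on repeat arrays 1 and 2. No test was made on this channel.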

How the results depend on the processing

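Of the 10 member probes, 4 were called as reported. The count was 2 with slide as a block, 0 within slide 2 alone (4 at an unadjusted p under 0.05 in limma, as were 2091 of all 19603 probes), 0 with the methods' t-test (6 unadjusted, as were 5024 of 19605) and 1 of the 7 member probes in the authors' value table. The value table holds no CYB5R2 probe and no CYB5B probe, so the CYB5R2 calls could not be tested in it. Of the CYB5R4 probes there, A_33_P3316686 kept its call (adjusted p = 0.00476 in limma) and A_23_P30995 lost it (0.0513). Leaving out a replicate gave 2 to 4 called member probes, the lowest without NCE replicate 2, and every other setting gave 3 to 6. Over all tested probes, 2364 were called as reported, 1444 in the authors' value table, 793 with the methods' t-test, 710 with slide as a block, 5 within slide 2, 4627 with all arrays under a random block, and 4053 without the array that stood apart. Leaving out a replicate gave 522 to 2415, with 522 and 523 without NCE replicates 2 and 3, 1172 without NCE replicate 1, and 1342 without CYGB+ replicate 3. The replicate block gave 5 member probes and 3141 probes in all, and it changed no member call other than that of CYB5A.

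The differences that turned sign were all uncalled, except that of CYB5D2, which was -0.45 with flagged spots kept. CYGB stood at 0.091 on Agilent's processed signal scaled to the 75th percentile and at 0.047 in the value table, and leaving out a replicate gave -0.31 to 0.22. CYB5R3 stood at 0.020 (A_23_P502224) under the former scaling and at -0.029 (A_24_P100277) within slide 2. Leaving out a replicate gave -1.5e-05 to 0.16 for CYB5R1 and -0.037 to 0.11 for CYB5B, which was -0.025 without the array that stood apart. The cause of these changes was not tested. The removal of the array that stood apart and the retention of flagged spots were chosen after seeing the data.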
